A study of Rattus norvegicus with 18 samples.

Results

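Cholesterol synthesis and the genes that SREBP2 drives were followed in rat primary hepatocytes given 1 of 4 compounds. The list held 29 genes, chosen by symbol as enzymes on the way from acetyl-CoA to cholesterol, the SREBP2 sensing machinery, and carriers and esterifying enzymes of cholesterol. Of these, 28 had a probe named through the reference gene table (Lbr did not), and 27 were measured, out of 21574 genes tested in all. Soat1, a cholesterol-esterifying enzyme, was well above background on none of the 18 arrays. The chosen probes of the other 27 were above background on every array, so none entered through 1 group alone.

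The cells were cryopreserved hepatocytes of male Sprague Dawley (SD) rats, precultured for 24 h. The 6 groups of 3 cultures, each on its own array, were DDMB, DDEB, CDMB and CDEB, each at 300 µM for 24 h, and the DMSO controls VC_1 and VC_2. The title calls the compounds p-dialkoxy chlorobenzenes and states the comparison of their modes of action as the aim, and the labels give only the codes. DDMB, CDMB and CDEB are assigned to VC_1 and DDEB to VC_2, because the chips came from different lots. The submitters describe 3 independent experiments per condition, without saying whether they used cells of different animals, so each p-value reflects variation among these cultures, whatever its source. The age of the animals and the DMSO concentration are not given in the sources used here.

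Cholesterol is built from acetyl-CoA through mevalonate, isoprenoid diphosphates and squalene, which is closed into lanosterol and then trimmed to cholesterol. Hepatocytes are a main site of this synthesis. When sterol in the endoplasmic reticulum is low, the escort protein Scap carries the transcription factor precursor encoded by Srebf2 to the Golgi, where it is cut, and the released factor raises transcription of most enzymes of the pathway. When sterol is high, the retention proteins encoded by Insig1 and Insig2 hold Scap back. Insig1 is itself a target of the factor, whereas Insig2 is controlled differently.

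Promoters of 4 genes are shown because all 4 are known targets of SREBP2 and the first 3 moved together between DDMB cultures. SREBP2 acts there with NF-Y, a factor that binds the CCAAT box. The sequences are RefSeq's (build GRCr8), each the 250 bases before the annotated start, and capitals mark CCAAT or its reverse complement ATTGG. The windows lie at chr2:53382054-53382303 (plus strand, Hmgcs1), chr17:66547525-66547774 (minus, Idi1), chr16:29746863-29747112 (plus, Msmo1) and chr4:8057770-8058019 (minus, Insig1).
Hmgcs1: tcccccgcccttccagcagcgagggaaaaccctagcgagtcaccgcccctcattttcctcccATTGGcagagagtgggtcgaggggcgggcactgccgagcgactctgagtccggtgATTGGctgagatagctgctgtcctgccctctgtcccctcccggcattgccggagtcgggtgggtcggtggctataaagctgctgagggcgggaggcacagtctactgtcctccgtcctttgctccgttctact
Idi1: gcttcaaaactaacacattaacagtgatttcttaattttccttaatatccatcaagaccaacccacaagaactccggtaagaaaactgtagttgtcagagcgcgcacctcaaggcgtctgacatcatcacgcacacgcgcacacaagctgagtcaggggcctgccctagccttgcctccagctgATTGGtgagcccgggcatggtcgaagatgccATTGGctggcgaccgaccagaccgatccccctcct
Msmo1: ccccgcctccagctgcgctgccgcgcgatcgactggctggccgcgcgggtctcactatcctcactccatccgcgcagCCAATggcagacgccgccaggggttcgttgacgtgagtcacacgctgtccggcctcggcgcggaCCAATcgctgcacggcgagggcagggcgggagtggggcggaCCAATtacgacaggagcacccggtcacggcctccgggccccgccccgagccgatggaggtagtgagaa
Insig1: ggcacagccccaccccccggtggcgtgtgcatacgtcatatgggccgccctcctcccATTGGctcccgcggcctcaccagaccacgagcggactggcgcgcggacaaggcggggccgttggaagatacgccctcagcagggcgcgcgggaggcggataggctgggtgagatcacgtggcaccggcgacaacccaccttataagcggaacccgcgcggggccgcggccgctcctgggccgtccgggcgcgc
Hmgcs1 and Idi1 hold 2 CCAAT matches each, Msmo1 holds 3 and Insig1 holds 1. The table had a promoter for 24 of the 29 genes. In its window of 250 bases before to 50 after the start, CCAAT was found on either strand in 19 of 24 (79.2%), against 37.5% of all 33469 promoters. A sterol response element written as TCACNCCAC was found on either strand in 0 of 24, against 1.12% of all promoters. With so rare a match, 0 of 24 does not set the list apart. Each gene of the list entered with 1 promoter, whereas the shares over all promoters count every entry. Acat2, Dhcr7, Cyp51, Scap and Npc1 had no CCAAT in the window. A match is a run of letters, not a shown binding site.

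Signals are given as log2 of the processed spot intensity minus the 75th percentile of the array, so 0 is the 75th percentile, and changes are differences of group means on that scale with their standard error (SE). Between 61.0% and 64.3% of probe spots per array were well above background, and the number of arrays limits the precision. Hepatocyte markers were measured for 10 of 10 genes, with a summed signal of 379 to 602 times the 75th percentile. Markers of other liver cells were mostly not measured or dim. Of 8 macrophage markers 3 were measured and Cd163, Marco, Csf1r, Adgre1 and C1qa were not. The summed signal of those 3 was 0.162 to 1.29. Endothelial markers reached 1.44 to 2.40 (3 of 7 measured), cholangiocyte markers 0.635 to 1.09 (3 of 5), stellate or fibroblast markers 0.227 to 0.422 (7 of 9) and lymphocyte markers 0.0419 to 0.0818 (2 of 6). The macrophage, endothelial and cholangiocyte sums rest mainly on Cd68, Vwf and Epcam. Group means on the log2 scale were 0.85 to 1.15 for Vwf and -7.31 to -4.91 for Cdh5 and Kdr. They were -0.73 to -0.32 for Epcam and -7.31 to -3.41 for Krt7 and Sox9. In such bulk RNA, fewer cells of a type and less RNA per cell cannot be told apart.

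Of the 18 arrays 5 stood apart from the rest, namely replicate 3 of VC_1, VC_2 and DDEB and replicates 2 and 3 of DDMB. Their signal of the macrophage marker Cd68 was -3.39 to -2.18, against -0.77 to 0.19 on the other 13 arrays, and their Epcam signal was -0.18 to 0.06 against -0.78 to -0.45. The second principal component of all genes, with 23.0% of the variance, set the same 5 arrays apart. VC_1 and DDMB shared a slide, VC_2 shared one with DDEB replicates 1 and 2, DDEB replicate 3 lay on another, and CDMB and CDEB shared the fourth. Compound and slide therefore cannot be told apart for CDMB or CDEB against VC_1, or for DDMB against either.

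No cholesterol gene passed the test against DMSO with any of the 4 compounds (limma, adjusted p below 0.05 over all genes). With DDMB the count was 0 of 27, where 0.552% of all genes were called, with CDMB 0 of 27 (0.051%), with CDEB 0 of 27 (0.153%) and with DDEB 0 of 27 (0.807%). At an unadjusted p below 0.05 there were 3, 2, 3 and 3 genes of the list in the same order, or 11.1%, 7.41%, 11.1% and 11.1%, against 10%, 13.5%, 13.5% and 15.1% of all genes. The median change of the 27 genes was 0.03 with DDMB (0.01 over all genes), -0.004 with CDMB (-0.0007), -0.06 with CDEB (-0.004) and -0.05 with DDEB (0.002). All 27 of the 95% intervals lay within 1 log2 unit of no change in each of these comparisons, so a 2-fold change was outside the interval of each gene. DDMB, CDMB and CDEB share the VC_1 arrays.

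**Figure D1:**
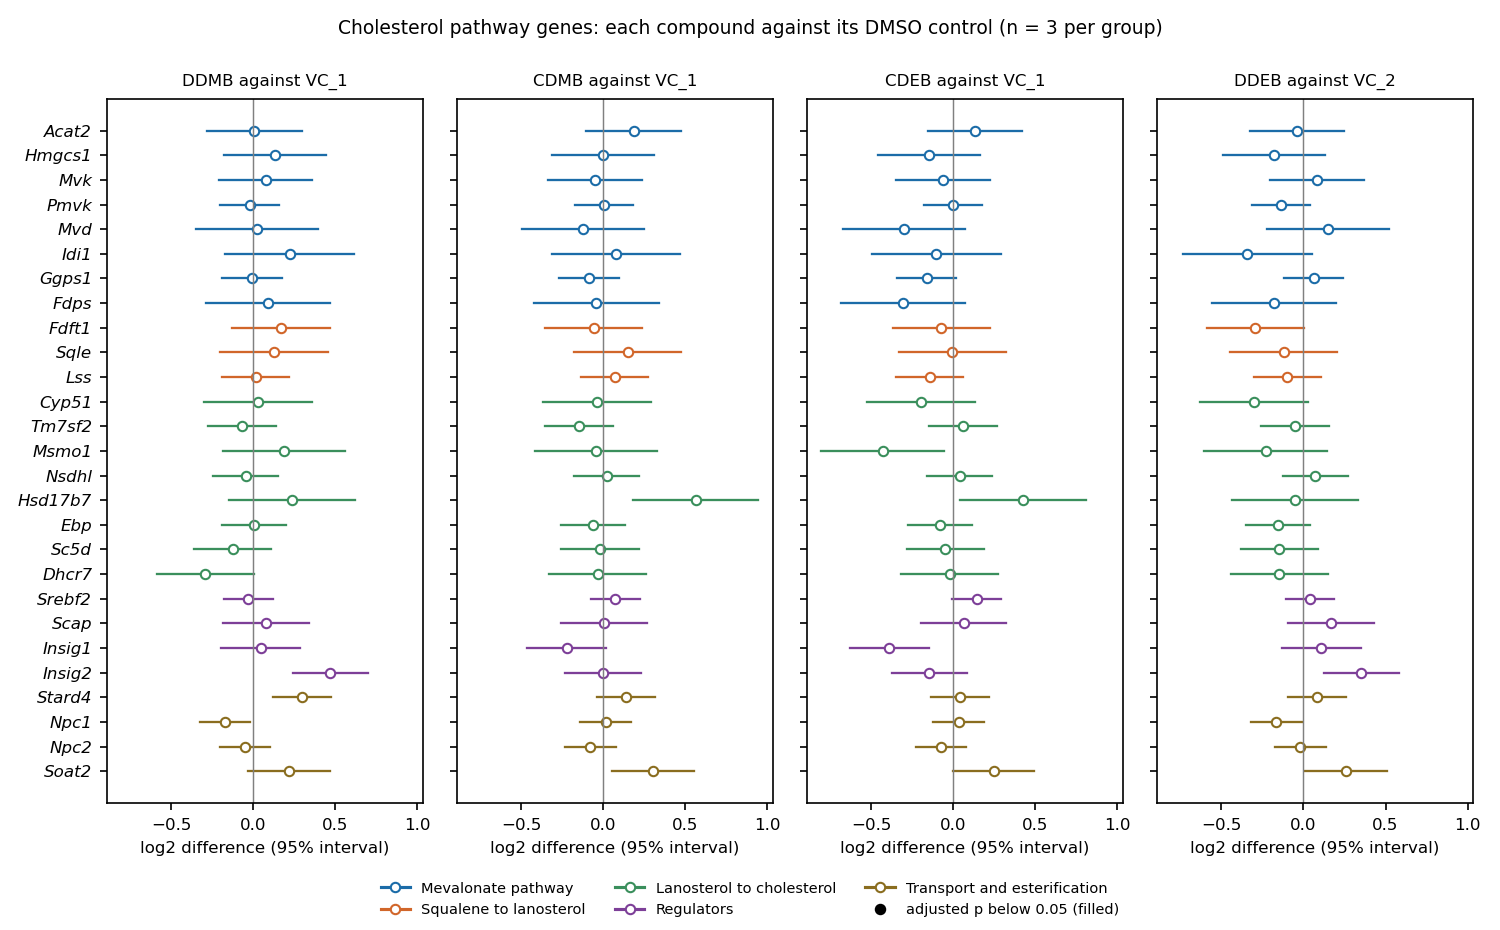
Each panel plots, for 1 compound against its DMSO control, the log2 difference (point) and its 95% interval (line) of the 27 measured genes in pathway order, coloured by role. All points are open because no gene reached an adjusted p below 0.05, and Insig2 lies to the right of 0 with DDMB (0.47) and DDEB (0.35).

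Insig2, one of the pair of proteins that retain Scap, had the largest change with DDMB and with DDEB, and neither passed the test. Its signal was 0.97, 1.30 and 1.45 on the 3 DDMB arrays and 0.74, 0.72 and 0.85 on those of VC_1. On the DDEB arrays it was 1.01, 1.22 and 1.19, and on those of VC_2 0.76, 0.73 and 0.87. In both comparisons every treated array lay above every control array. The difference was 0.47 ± 0.11 (SE) with DDMB, or 1.39-fold (limma adjusted p = 0.0714), and 0.35 ± 0.11 with DDEB, or 1.28-fold (adjusted p = 0.142). The Insig2 signal was 0.89, 0.65 and 0.75 with CDMB and 0.68, 0.58 and 0.61 with CDEB. CDMB arrays overlapped those of VC_1 and CDEB arrays all lay below them, with differences of -0.001 ± 0.11 and -0.15 ± 0.11.

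Whether Insig2 passed depended on which arrays entered the fit and how. Without DDMB replicate 1, the sole DDMB array of high Cd68 signal, the DDMB difference was 0.61 (limma adjusted p = 0.00706). The Cd68 class of the array as a block was a setting chosen after seeing the data. Of all 21574 genes it called 1605 with DDMB and 1489 with DDEB, against 119 and 174 in the reported fit. Under it the Insig2 difference was 0.41 with DDMB (limma adjusted p = 0.0141) and 0.35 with DDEB (adjusted p = 0.0273). With the 5 arrays of low Cd68 signal left out, also chosen after seeing the data, 1 DDMB array was left and the DDMB difference was 0.24. The DDEB difference did not pass in that fit (limma adjusted p = 0.0604). Within arrays of high Cd68 signal the differences were 0.24 (1 DDMB against 2 VC_1 arrays) and 0.37 (2 DDEB against 2 VC_2 arrays), and within arrays of low Cd68 signal they were 0.52 (2 against 1) and 0.32 (1 against 1).

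Insig1, Srebf2 and Scap, the other genes of the sensing machinery, passed with no compound either. Insig1, the second retention protein, had signals of 3.44, 3.55 and 3.24 with DDMB, 3.31, 3.00 and 3.11 with CDMB and 2.97, 3.02 and 2.92 with CDEB, against 3.31, 3.34 and 3.44 in VC_1. With DDEB it was 3.23, 3.18 and 3.58, against 3.15, 3.22 and 3.30 in VC_2. The 3 CDEB arrays all lay below VC_1, and the other groups overlapped their controls. The differences were -0.39 ± 0.11 with CDEB (limma adjusted p = 0.189), -0.22 ± 0.11 with CDMB, 0.05 ± 0.11 with DDMB and 0.11 ± 0.11 with DDEB. Srebf2, the precursor of SREBP2 itself, had differences of -0.03 (DDMB), 0.07 (CDMB), 0.14 (CDEB) and 0.04 (DDEB), and its 3 CDEB arrays all lay above VC_1. For Scap, the escort, the differences were 0.08, 0.006, 0.06 and 0.17 in the same order, with overlapping arrays throughout. The mRNA of Srebf2 does not show how much of the protein is cut and active.

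In the mevalonate segment, which runs from acetyl-CoA to the isoprenoid diphosphates, 8 of 8 genes were measured. These were Acat2 (thiolase), Hmgcs1 (HMG-CoA synthase), Mvk and Pmvk (mevalonate kinases), Mvd (decarboxylase), Idi1 (isomerase), and Fdps and Ggps1, which lengthen the chain to farnesyl and geranylgeranyl diphosphate. With DDMB 6 of the 8 lay above 0 (changes -0.02 to 0.22), with CDMB 3 (-0.12 to 0.18), with CDEB 1 (-0.31 to 0.13) and with DDEB 3 (-0.34 to 0.15). Idi1 had the largest of these with DDEB, with signals of 1.15, 0.85 and 0.90 against 1.27, 1.20 and 1.47 in VC_2. The 3 DDEB arrays all lay below the controls, and the difference was -0.34 ± 0.18 (limma adjusted p = 0.393). With DDMB the Idi1 arrays spread from 1.15 to 1.97 (the middle one at 1.38) and enclosed the VC_1 values of 1.28, 1.20 and 1.35, giving 0.22 ± 0.18. The Idi1 arrays of CDMB were at 1.65, 1.33 and 1.09 and those of CDEB at 1.28, 1.25 and 1.00, and both overlapped VC_1. Of the other genes in the segment, Mvd and Ggps1 had CDEB arrays all below VC_1, with differences of -0.30 ± 0.17 and -0.16 ± 0.08.

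The squalene segment comprises Fdft1 (squalene synthase), Sqle (squalene epoxidase) and Lss, the cyclase that makes lanosterol. All 3 lay above 0 with DDMB (0.02 to 0.17) and below 0 with DDEB (-0.29 to -0.10) and CDEB (-0.14 to -0.006). With CDMB 2 lay above 0 (-0.06 to 0.15). Lss had CDEB arrays all below VC_1 (-0.14 ± 0.09) and Sqle had CDMB arrays all above it (0.15 ± 0.15). The largest difference in this segment, that of Fdft1 with DDEB, was -0.29 ± 0.14 (limma adjusted p = 0.338), and DDEB replicate 3 was the low array of that group, at 0.70 against 1.42 and 1.30.

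From lanosterol to cholesterol, 8 of 9 genes were measured. Cyp51 removes the first methyl group, Msmo1 and Nsdhl remove further ones with the reductase Hsd17b7, Tm7sf2 reduces a double bond, Ebp moves another, Sc5d introduces one and Dhcr7 catalyses a final reduction. With DDMB 4 of the 8 lay above 0, with CDMB 2, with CDEB 3 and with DDEB 1. The step medians were -0.02, -0.04, -0.04 and -0.15 in the same order.

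Msmo1, the methylsterol oxidase, had CDEB signals of 3.21, 3.22 and 3.04, against 3.48, 3.48 and 3.80 in VC_1. All 3 CDEB arrays lay below VC_1, and the difference of -0.43 ± 0.17 did not pass (limma adjusted p = 0.313). With DDMB its signals were 4.11, 3.81 and 3.42 and with CDMB 3.73, 3.53 and 3.38. Both sets overlapped VC_1, with differences of 0.19 ± 0.17 and -0.04 ± 0.17. With DDEB Msmo1 was at 3.34, 3.12 and 3.61 against 3.47, 3.48 and 3.83 in VC_2, also overlapping, with -0.23 ± 0.17.

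Hsd17b7, the ketone reductase of sterol demethylation, had the largest change with CDMB. Its signals were -1.52, -1.67 and -1.59 with CDMB and -1.73, -1.65 and -1.81 with CDEB, against -2.06, -2.10 and -2.31 in VC_1. Both compounds lay above all control arrays, by 0.56 ± 0.18 (limma adjusted p = 0.238) and 0.43 ± 0.18 (adjusted p = 0.326). Of the DDMB arrays, replicate 1 was at -1.54 and replicates 2 and 3 at -2.13 and -2.09, a difference of 0.24 ± 0.18. The DDEB arrays, at -2.06, -2.36 and -2.75, overlapped those of VC_2 at -2.19, -2.22 and -2.61. A second, dimmer probe of Hsd17b7 gave 0.34 with CDMB and 0.02 with CDEB, and 0.12 where the brighter gave -0.05 with DDEB. The probes therefore disagreed on size for CDEB and on direction for DDEB. Both compounds lay on another slide than VC_1. A spike-in ratio was taken as 1 control probe over a brighter one, each as the median of its spots. This ratio was 1.23% to 1.32% on CDMB and 1.21% to 1.28% on CDEB arrays, against 1.98% to 2.04% on VC_1. It also differed for DDEB, at 1.09%, 1.18% and 1.66% against 1.73% to 1.83% on VC_2, and was 1.78% to 2.02% on DDMB. Its bearing on the changes of any compound was not tested. With the Cd68 class as a block the CDMB difference was 0.42 (limma adjusted p = 0.0497), and 165 of all genes were called, against 11 in the reported fit. Without the 5 arrays of low Cd68 signal the CDMB difference was 0.49.

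Dhcr7, the final reductase, had DDMB signals of 1.20, 1.55 and 1.42, against 1.58, 1.62 and 1.85 in VC_1. All 3 DDMB arrays lay below the controls, a difference of -0.29 ± 0.14 (limma adjusted p = 0.512). With the Cd68 class as a block, where 1605 of 21574 genes were called, it was -0.40 (limma adjusted p = 0.00431). Without the 5 arrays of low Cd68 signal, which leaves 1 DDMB array, it was also -0.40. CDMB (1.70, 1.58 and 1.67) and CDEB (1.67, 1.68 and 1.64) overlapped VC_1, with differences of -0.03 and -0.02. DDEB signals were 1.17, 1.31 and 1.77 against 1.44, 1.49 and 1.76, and the array of low Cd68 signal was the highest in VC_1, VC_2 and DDEB alike. Cyp51, the lanosterol demethylase, had DDEB signals of 2.02, 1.83 and 2.21 against 2.26, 2.21 and 2.49 in VC_2, which overlapped, with -0.30 ± 0.15 (adjusted p = 0.371). Its DDMB arrays (2.79, 2.41 and 2.15) and CDMB arrays (2.54, 2.36 and 2.24) overlapped VC_1 (2.34, 2.30 and 2.62). All 3 Cyp51 arrays of CDEB (2.29, 2.26 and 2.10) lay below VC_1, by -0.20 ± 0.15. The other genes of this segment, Tm7sf2, Nsdhl, Ebp and Sc5d, had differences between -0.16 and 0.07 over the 4 comparisons, and of these only Sc5d with DDEB had arrays that did not overlap the control.

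Among carriers and esterifying enzymes, 4 of 5 genes were measured. Stard4, a soluble sterol carrier, had DDMB signals of -0.96, -1.05 and -1.22, against -1.41, -1.33 and -1.39 in VC_1. All 3 lay above the controls, and the difference of 0.30 ± 0.08 (1.23-fold) did not pass (limma adjusted p = 0.141). With the Cd68 class as a block, where 1605 of 21574 genes were called, it was 0.31 (limma adjusted p = 0.0406). Without the 5 arrays of low Cd68 signal, which leaves 1 DDMB array, it was 0.41. With CDMB (-1.10, -1.36 and -1.26), CDEB (-1.34, -1.33 and -1.35) and DDEB (-1.71, -1.68 and -1.51, against -1.73, -1.64 and -1.78 in VC_2) Stard4 arrays overlapped the controls.

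Soat2, the esterifying enzyme of hepatocytes, was at -0.85, -0.75 and -0.76 with CDMB and -0.77, -0.89 and -0.87 with CDEB, against -0.98, -0.99 and -1.30 in VC_1. Both compounds lay above all 3 control arrays, by 0.30 ± 0.12 (limma adjusted p = 0.300) and 0.25 ± 0.12 (adjusted p = 0.375). The low array in each control group, at -1.30 in VC_1 and -1.25 in VC_2, was the one of low Cd68 signal. DDMB (-0.89, -1.05 and -0.68) and DDEB (-0.74, -0.90 and -0.69) overlapped their controls, VC_2 being at -0.89, -0.96 and -1.25, with differences of 0.22 and 0.26. Npc1, which with Npc2 moves cholesterol out of the lysosome, had differences of -0.17 ± 0.07 with both DDMB and DDEB, 0.01 with CDMB and 0.03 with CDEB. The DDEB arrays of Npc1 all lay below VC_2. Npc2 had differences of -0.08 to -0.02 over the 4 compounds.

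**Figure D2:**
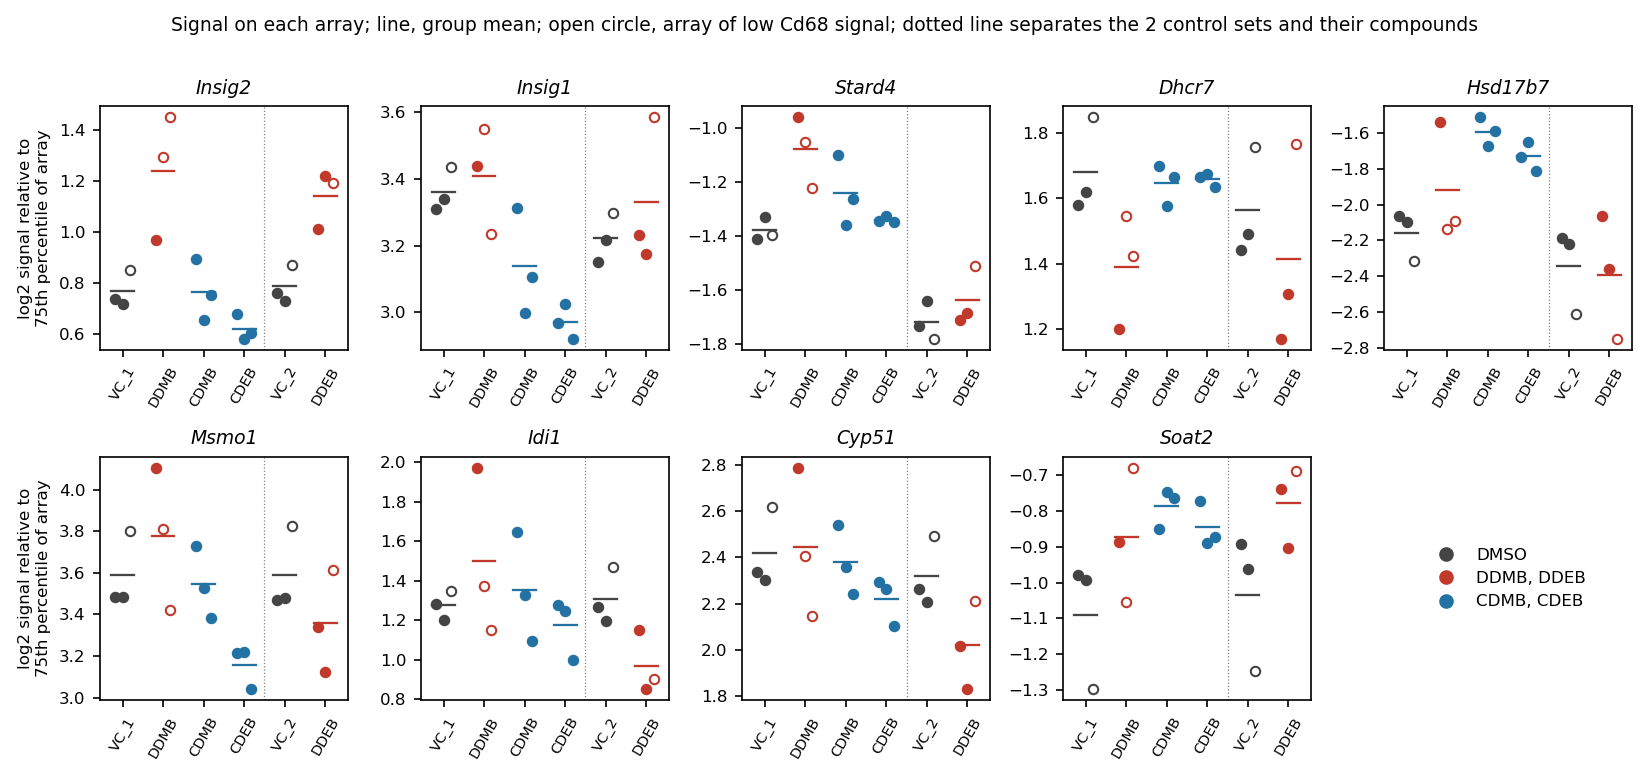
Each panel plots the signal of 1 gene on each of the 18 arrays (y axis, log2 relative to the 75th percentile of the array) by group, with a line at the group mean and open circles for the 5 arrays of low Cd68 signal. The Insig2 arrays of DDMB and DDEB all sit above their DMSO controls, and in Hsd17b7 the arrays of CDMB and CDEB sit above VC_1.

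Arrays of treated and control cells did not overlap for 3 of 27 genes with DDMB, where 13.9% of all genes did not overlap, with 2 higher (7.98% of all genes) and 1 lower (5.92%). With CDMB the count was 3 (25.5%), all higher (11.5%) and none lower (14%). It was 10 with CDEB, or 37.0% against 29.9% of all genes, with 3 higher (14.4%) and 7 lower (15.5%). With DDEB it was 4, or 14.8% against 16.2%, with 1 higher (9.21%) and 3 lower (6.97%). The DDMB, CDMB and DDEB shares were thus at or below those over all genes. Of the 19 measured enzymes of synthesis alone, 13 lay above 0 with DDMB (median 0.03), 7 with CDMB (-0.03), 4 with CDEB (-0.07) and 4 with DDEB (-0.14). Of all genes 51.7%, 49.8%, 49.0% and 50.4% lay above 0 in the same order. Without DDMB replicate 1 the DDMB changes of Acat2, Hmgcs1, Idi1, Fdps, Sqle, Lss, Cyp51 and Ebp fell below 0, and that of Ggps1 rose above it.

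The compounds were then compared with each other at their common dose and time, in 6 pairs. CDEB against CDMB, on 1 slide, gave 0 of 27 calls, where 0% of all genes were called (2 genes of the list and 4.76% of all genes had an unadjusted p below 0.05). Of the 19 enzymes 16 were lower with CDEB (median -0.08), and the 6 genes whose arrays did not overlap were all lower with CDEB. They made up 22.2% of the list, against 19.8% of all genes in either direction, 9.02% lower and 10.8% higher. They were Mvd, Ggps1, Fdps, Sqle, Lss and Msmo1. Msmo1 had the largest difference, -0.39 ± 0.17, with a 95% interval of -0.76 to -0.02 and a limma adjusted p of 1.00. For Insig2 the interval was -0.37 to 0.08 and for Insig1 -0.41 to 0.07.

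DDMB against CDEB gave the only calls, for the retention proteins Insig2 and Insig1, or 2 of 27 genes (7.41%) where 3.66% of all genes were called. Both were higher with DDMB. All 3 DDMB arrays of Insig2 (0.97 to 1.45) lay above all 3 of CDEB (0.58 to 0.68), and the difference was 0.62 ± 0.11, or 1.53-fold (limma adjusted p = 0.00962). For Insig1 the DDMB arrays (3.24 to 3.55) likewise lay above those of CDEB (2.92 to 3.02), by 0.44 ± 0.11, or 1.35-fold (adjusted p = 0.0467). Msmo1 had a difference of the same size as Insig2, 0.62 ± 0.17, and missed the threshold (adjusted p = 0.0606), as did Stard4 (0.26 ± 0.08, adjusted p = 0.0913). An unadjusted p below 0.05 was reached by 7 of 27 genes, against 20.8% of all genes. Arrays did not overlap for 12 of 27 genes, or 44.4% against 34.2% of all genes, with 8 higher (18.8%) and 4 lower (15.4%) with DDMB. Those lower were Tm7sf2, Dhcr7, Srebf2 and Npc1.

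Slide and compound cannot be told apart in this pair. With slide as a random block both calls were lost (limma adjusted p = 0.962 for Insig2 and 0.999 for Insig1). That setting left 1 call over all genes, against 790 in the reported fit, and so cannot decide on these 2 genes. Both calls were also lost in a fit of these 6 arrays alone (adjusted p = 0.0768 and 0.0789), which called 22 of all genes. Without CDEB replicate 2 the Insig2 difference was 0.60 (adjusted p = 0.0538), and the Insig1 call was lost without any 1 array of either group (adjusted p = 0.0633 to 0.175). Of the DDMB arrays 2 of 3 had low Cd68 signal and of the CDEB arrays 0 of 3, and the summed signal of 3 macrophage markers was 0.162 to 0.986 with DDMB and 0.861 to 0.972 with CDEB. That sum rests mainly on Cd68, with group means of -1.90 (DDMB) and -0.25 (CDEB). C1qb was at -3.82 and -3.67 and Clec4f at -7.79 and -6.76. Cholangiocyte markers were at 0.635 to 1.07 and 0.648 to 0.673, mainly from Epcam (group means -0.32 and -0.73), with Sox9 at -4.35 and -4.38. With the Cd68 class as a block the Insig2 difference was 0.49 (limma adjusted p = 0.0108) and that of Insig1 0.34 (adjusted p = 0.0843), and that of Dhcr7 -0.49 (adjusted p = 0.00360). That setting called 1399 of all genes in this pair, against 790 in the reported fit. Without the 5 arrays of low Cd68 signal, which leaves 1 DDMB array, the differences were 0.35 for Insig2 and 0.47 for Insig1.

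DDMB against CDMB gave 0 of 27 calls, where 0.959% of all genes were called (3 of the list and 17% of all genes had an unadjusted p below 0.05). Insig2 was again the largest, at 0.47 ± 0.11 (limma adjusted p = 0.0554), with arrays that did not overlap. With the replicate number as a block the same difference passed (adjusted p = 0.0422), and without DDMB replicate 1 it was 0.61 (adjusted p = 0.00654). Without the 5 arrays of low Cd68 signal, which leaves 1 DDMB array, it was 0.20. Fdft1 (0.23 ± 0.14) and Dhcr7 (-0.26 ± 0.14) were the other genes without overlap, making 3 of 27 against 27.4% of all genes, with 2 higher (15.8%) and 1 lower (11.6%). DDEB lay on other chips, so its change over VC_2 was set against each other compound's change over VC_1. The difference passed for 0 of 27 genes against DDMB (0% of all genes), 0 against CDMB (0%) and 0 against CDEB (0.00927%), with 2 genes of the list at an unadjusted p below 0.05 in each, against 5.91%, 5.82% and 6.71% of all genes. For Insig2 the DDEB change minus that of CDEB was 0.50 ± 0.15, minus that of CDMB 0.35 ± 0.15 and minus that of DDMB -0.12 ± 0.15. For Idi1 the DDEB change minus the DDMB change was -0.56 ± 0.26, with a 95% interval of -1.12 to -0.01 (adjusted p = 0.840).

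**Figure D3:**
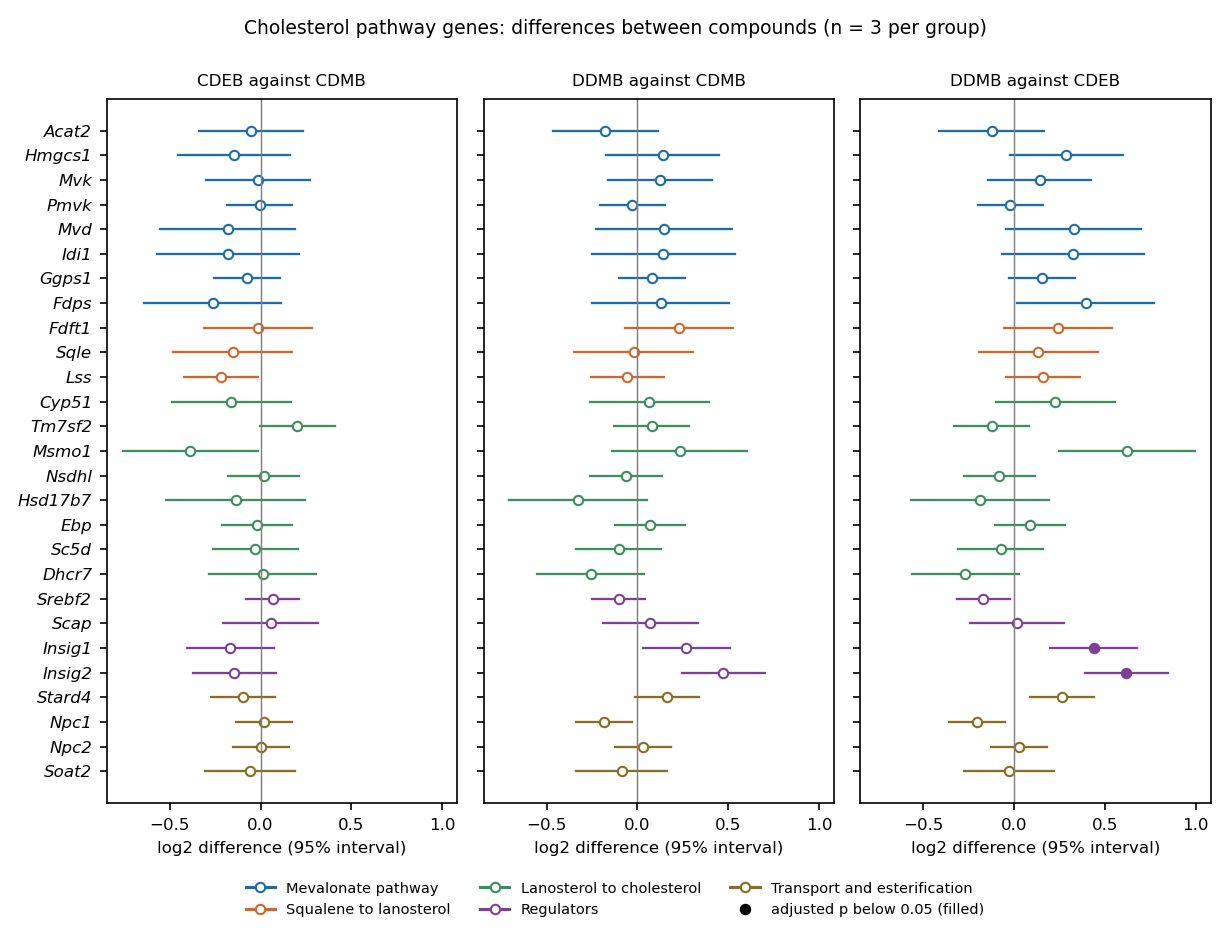
Each panel plots the log2 difference (point) and its 95% interval (line) between 2 compounds for the 27 measured genes in pathway order. Filled points mark an adjusted p below 0.05, reached by Insig1 (0.44) and Insig2 (0.62) in DDMB against CDEB.

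On some arrays most of the enzymes, though not all, lay on the same side of their group mean. On DDMB replicate 1, 14 of the 19 enzymes lay above the mean of their group, with a median deviation of 0.18, and on replicate 3 only 3 did, with a median of -0.11. All genes had median deviations of 0.005 and 5.25e-05 on these arrays. The enzymes that went the other way were Mvk, Mvd, Ggps1, Tm7sf2 and Dhcr7 on replicate 1 (-0.24 to -0.02) and Mvk, Ggps1 and Dhcr7 on replicate 3 (0.03 to 0.08). Hmgcs1 deviated by 0.31 and -0.31 on DDMB replicates 1 and 3, Idi1 by 0.47 and -0.35, Msmo1 by 0.33 and -0.36 and Insig1 by 0.03 and -0.17. Hmgcs1, Idi1, Msmo1 and Insig1 are the 4 genes whose promoters are shown above. Hmgcs1, Idi1 and Msmo1 thus spread within DDMB by more than their group means differed from VC_1. Acat2 (0.38 and -0.25) and Cyp51 (0.34 and -0.30), which had no CCAAT in the window, deviated likewise on these arrays. Mvk, whose window held CCAAT, deviated by -0.24 and 0.08. A link between the motif and these deviations was not tested.

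In VC_1, VC_2 and DDEB the high array was replicate 3, with 16, 15 and 15 of 19 enzymes above the group mean and medians of 0.10, 0.14 and 0.16. Those 3 are the arrays of low Cd68 signal in their groups. In DDMB the high array was replicate 1, whose Cd68 signal was high. In CDMB, where all 3 arrays had high Cd68 signal, 15 of 19 enzymes lay above the mean on replicate 1 (median 0.09), and in CDEB 3 of 19 did on replicate 3 (median -0.08). Hsd17b7, Fdft1, Idi1 and Sqle lay below the group mean on DDEB replicate 3, at -0.36, -0.44, -0.07 and -0.06, while Mvd and Dhcr7 stood at 0.38 and 0.35.

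**Figure D4:**
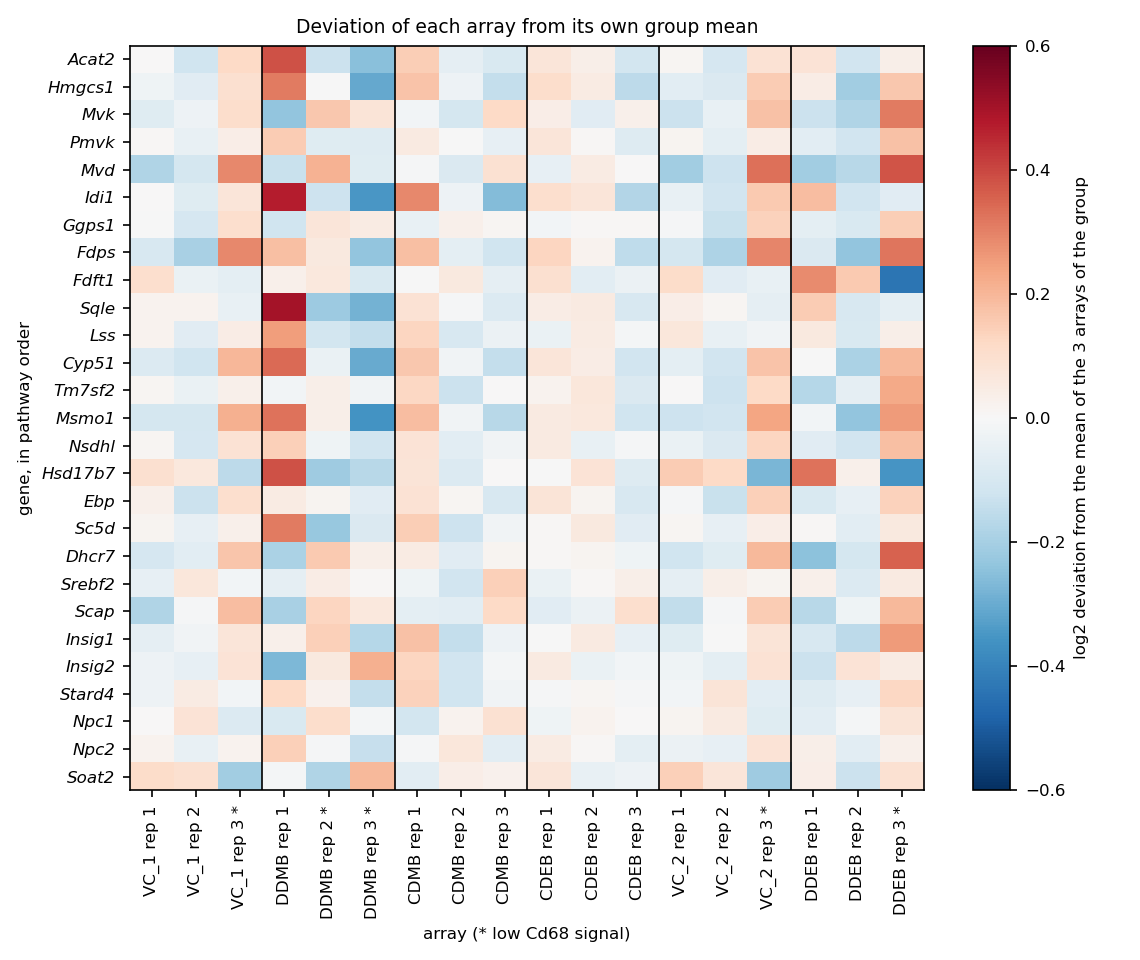
The colours give the log2 deviation of each array (columns, 3 per group, an asterisk marking low Cd68 signal) from the mean of its own group for the 27 genes (rows, pathway order). Some columns are mostly red or mostly blue, such as DDMB replicate 1 with 14 of 19 enzymes above its group mean and DDMB replicate 3 with 3. Within DDMB replicate 1, Insig2 (-0.27), Mvk (-0.24) and Dhcr7 (-0.19) are among the genes below it.

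Genes that neighbour the pathway were taken from 6 further lists and read in the same comparisons with DMSO. Of 7 measured partners in SREBP processing 0 passed with any compound, and the median change ran from -0.10 with DDMB to 0.05 with CDEB. Their largest changes were those of Srebf1, the sister factor that drives fatty acid synthesis, at -0.49 ± 0.16 with DDMB (limma adjusted p = 0.238) and -0.39 ± 0.16 with DDEB (adjusted p = 0.263), Rnf139 at 0.30 with CDMB and Mbtps2, a protease that cuts the factor, at -0.35 with CDEB. Of 17 genes of fatty acid synthesis, Scd, the stearoyl-CoA desaturase, rose with CDEB by 0.54 ± 0.07 (adjusted p = 0.00783) and with DDEB by 0.52 ± 0.07 (adjusted p = 0.00570), and none fell. The CDEB call was lost with slide as a random block (limma adjusted p = 0.9999) and in a fit of the compared arrays alone (0.217). Those settings called 0 of all genes with CDEB, so no gene kept a call. It was also lost without CDEB replicate 2 (0.0530). The DDEB call was lost with the compared arrays alone (limma adjusted p = 0.550) and with the authors' deposited tables (0.536). Both settings rest on the same arrays and called 0 of all genes with DDEB, so no gene kept a call. The Scd differences there were 0.52 and 0.53. The largest changes in that list with DDMB and CDMB, Thrsp at -0.87 ± 0.35 and Fads1 at -0.58 ± 0.34, did not pass.

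Of 7 measured genes of sterol efflux and the sterol receptor LXR, Abcg5, a subunit of the exporter that moves sterol into bile, rose with DDMB by 1.01 ± 0.16 (limma adjusted p = 0.00877) and with DDEB by 0.87 ± 0.16 (adjusted p = 0.0214). Neither passed after normexp background correction (0.68 and 0.56, limma adjusted p = 0.0681 and 0.148). Neither passed with the compared arrays alone (adjusted p = 0.302 and 0.551), where 0 of all genes were called in either comparison. Without the 5 arrays of low Cd68 signal, which leaves 1 DDMB array, the DDMB difference was 0.89. The DDEB difference was then 0.68 and did not pass (adjusted p = 0.0515). The DDMB call was also lost without DDMB replicate 3 (adjusted p = 0.0613). The DDEB call was also lost with the deposited tables (limma adjusted p = 0.556), where 0 of all genes were called with DDEB. It was also lost without VC_2 replicate 2 or 3 or DDEB replicate 2 (adjusted p = 0.0735 to 0.0807). With CDMB it differed by 0.67 ± 0.16 (adjusted p = 0.161), and the largest change with CDEB was Abcg1 at 0.55 ± 0.24. No gene passed among 11 of bile acid synthesis, 9 of the isoprenoid branches and 12 of sterol uptake and trafficking. Cyp7a1, the rate-limiting enzyme of bile acid synthesis, had the largest change of its list with every compound (-0.73, 1.02, 1.54 and -0.86 with DDMB, CDMB, CDEB and DDEB), each with an SE of 0.83. In the isoprenoid branches the largest were Dhdds with DDMB (0.26) and DDEB (0.29) and Nus1 with CDMB (0.43) and CDEB (0.42), which together make dolichol. In the last list they were Gramd1b, a sterol transfer protein, with DDMB (-0.76) and Por, which passes electrons to Cyp51 and other P450 enzymes, with CDMB (0.55), CDEB (0.44) and DDEB (0.51).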

How the data were processed

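Each of 18 RNA samples (100 ng) was hybridised to 1 one-colour Agilent array. Per the file headers, intensity was read with Feature Extraction 10.7.1.1 and build rn4. The authors' deposited tables hold scaled signal in 2 separately normalized sets and served as an alternative. Unflagged spots of a probe were averaged as log2 processed intensity and each array's 75th percentile over probe spots was subtracted. A probe stayed in (25306 of 45598) if some group had it well above background on each of its 3 arrays, and the brightest represented its gene. Probes were named by accession through a RefSeq table, which named 21109. Group means were fitted on all 18 arrays with limma 3.58.1 in R 4.3.3 (lmFit, eBayes, 12 residual degrees of freedom), checked on simulated data, with Benjamini-Hochberg adjustment over 21574 genes within each comparison. Adjusted p-values are limma's with n = 3. The members and lists were chosen with earlier results of these data known. Array values are given for the 3 genes with the largest change per comparison with DMSO and others by range, and per further list up to 3 called genes, or else the largest change. The files hold no mean pixel signal, so normexp used the median. The reported fit has no replicate block. In each of the 7 direct comparisons at least 1 same-numbered pair had a correlation of deviations across genes of at most 0.1, the rule for pairing used here (DDMB with VC_1 -0.42 to 0.56, DDEB with VC_2 0.096 to 0.49), whereas all pairs of VC_1 with VC_2, which are not compared directly, exceeded it. Some genes of the pathway are not reported here.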

Additional observations from a re-analysis of the deposited data

Results flagged for a closer look

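Insig2 differed between 2 compounds under the test of the difference itself, with DDMB 0.62 higher than CDEB on the log2 scale (limma adjusted p = 0.00962, higher on 3 of 3 arrays). Insig1 differed in the same pair by 0.44 (adjusted p = 0.0467, higher on 3 of 3 arrays). The pair lies on different slides, so slide and compound cannot be told apart. Groups of 3 arrays were not tested for single arrays far from the others.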

How the results depend on the processing

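With CDEB against VC_1, CDEB against CDMB and the 3 differences of DDEB effects, the number of cholesterol genes called was 0 under every alternative run. For DDMB against CDEB (2 genes as reported) it was 1 with quantile normalization, with the percentile over probes or without the filter on dim probes (Insig2 each time), 0 with slide as a random block or with the compared arrays alone, and 0 to 1 with 1 array left out. Over all genes, slide as a random block left 1 call in this pair and the compared arrays alone left 22. Normexp also gave 2 genes of the list, with Msmo1 (limma adjusted p = 0.0460) in place of Insig1. Leaving out 1 array gave 0 to 1 for DDMB against VC_1 and DDMB against CDMB, and 0 for the other comparisons with DMSO. With the replicate number as a block, DDMB against CDMB had 1 call (Insig2, 0.47, limma adjusted p = 0.0422), and no other count changed. By number, the own array correlated best for 2 of 3 pairs in DDMB with VC_1.

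Alternatives chosen after seeing the data moved some of these counts. The Cd68 class as a block gave 4 for DDMB against VC_1 (Insig2, Dhcr7, Hsd17b7 and Stard4), 1 for CDMB (Hsd17b7), 1 for DDEB (Insig2), 1 for DDMB against CDMB (Dhcr7) and 2 for DDMB against CDEB (Insig2 and Dhcr7). Calls over all 21574 genes also rose under this setting. In the same order they were 1605, 165, 1489, 363 and 1399, against 119, 11, 174, 207 and 790 in the reported fit. Without the 5 arrays of low Cd68 together, 1 DDMB array is left and assumed to vary like the others, so for DDMB only differences are given. Against VC_1 they were 0.61 for Sqle and -0.40 for Dhcr7. Against CDEB they were 0.63 for Sqle, 0.57 for Cyp51, 0.95 for Msmo1 and -0.46 for Dhcr7, and against CDMB -0.45 for Dhcr7. The cause of these shifts was not tested.

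The medians of the list stayed between -0.01 and 0.15 for DDMB, -0.06 and 0.05 for CDMB, -0.08 and -0.02 for CDEB and -0.11 and -0.04 for DDEB. Of 1890 refitted changes against DMSO, 143 had another sign than reported, all of genes with a reported size of at most 0.22. Counts over all genes ran from 0 to 1605 for DDMB against VC_1, 0 to 165 for CDMB, 0 to 275 for CDEB and 0 to 1489 for DDEB, each 0 with the compared arrays alone. They ran from 1 to 1399 for DDMB against CDEB, 0 to 590 for DDMB against CDMB and 0 to 39 for CDEB against CDMB. The deposited tables gave no value for differences of DDEB effects, since their sets were normalized separately, and slide as a fixed block could be fitted only where groups shared a slide. The 3 arrays per group limit the precision, and Soat1 was not well above background.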

Other observations

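The same-numbered DMSO arrays of VC_1 and VC_2 deviated from their group means together, with correlations across genes of 0.63, 0.47 and 0.81 for replicates 1, 2 and 3 (genes are not independent replicates). The labels do not say whether these share cells. In both sets, among genes chosen after their values were seen, replicate 3 held the highest signal of Msmo1, Cyp51, Dhcr7 and Insig2 and the lowest of Soat2 and Hsd17b7.

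Sc5d, Nsdhl, Npc2 and Stard4, also chosen after their values were seen, gave lower signals in all 3 VC_2 arrays than in all 3 VC_1 arrays. So did Pmvk, Tm7sf2, Lss, Insig1 and Npc1. Fdft1 went the other way, higher in all 3 VC_2 arrays (group means 1.43 in VC_2 and 1.18 in VC_1). The share of all genes without overlap between these sets was not computed, so the differences are not shown to be particular to this list. The first principal component of all genes, with 41.7% of the variance, also set the VC_2 arrays apart from the VC_1 arrays. These sets lie on different chip lots, and lot and culture cannot be told apart.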
